A study of Mus musculus with 6 samples.

Results

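The 724 regions described here are sites of open chromatin in mouse liver whose DNase I signal was at least doubled in fasted mice. They were picked from 36088 regions of chromosomes 1 to 19 that had a hotspot, a local excess of DNase I cuts, in every one of 6 libraries, out of 72722 merged regions in all. A region entered when the mean of log2(maximum tag density + 1), centred on each library's median, was at least 1 higher in fasted than in fed libraries, and the lowest fasted value lay above the highest fed value. These 2 conditions took 2.01% of the shared regions. The opposite conditions took 1035 regions (2.87%), called halved here. Of all shared regions, 2.03% met the condition on the mean alone. In 17.4% every fasted value lay above every fed one, and in 14.3% every fasted value lay below. The contrast between fasted and fed density chose the regions, so their differences are given as a description and carry no test.

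Liver of C57BL/6 mice, a standard inbred strain, gave 6 libraries: for 3 the mice had free access to food (fed), and for the other 3 they went without it for 24 h (fasted). Densities are listed throughout in the order of replicates 1, 2 and 3 of a group. All mice were kept under a 12-hour light cycle, and no genetic change or other treatment is named for either group. Livers were taken when the lights came on, and isolated nuclei were digested with DNase I, at 40 units per ml for all 6 libraries. The labels number the replicates but do not say that each was a separate animal, so the spread between them may be partly technical. The tissue label was not checked against cell type markers, since no annotation of build mm9, the build of the files, was used.

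DNase I cuts DNA that is not packed in nucleosomes, and in a tissue such as liver most of the open sites away from promoters are enhancers bound by transcription factors. In fasting, falling insulin and rising glucagon and glucocorticoids act on hepatocytes through CREB, FOXO, the glucocorticoid receptor and PPAR-alpha, factors known for switching on glucose production, fatty acid oxidation and ketone synthesis. Whole liver also holds Kupffer cells, endothelium, stellate cells and other types, and in such bulk samples a larger number of cells of a type and a stronger signal per cell cannot be told apart.

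Maximum tag densities were whole multiples of 1 step in each library (100% within 0.05 step). If 1 step is 1 tag, which the sources used here do not state, the libraries span relative depths of 1.00 (fed replicate 2) to 1.90 (fasted replicate 2). On that reading the doubled regions had median heights of 41 to 65 tags in the fed libraries and 134 to 183 tags in the fasted ones. The weakest of them reached 8 tags in a fed library and 27 in a fasted one, so the densities of the weak members carry a large counting error.

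The doubled regions mostly lay below the middle of the shared sites in fed liver and above it in fasted liver. Fed libraries had median densities of 16.7, 15.4 and 14.9 at the members, and fasted libraries 38.0, 36.1 and 40.6. Over all shared regions the fed medians were 25.4, 24.0 and 23.8, and the fasted medians 23.3, 21.1 and 24.8. The members thus stood below the typical shared site in every fed library and above it in every fasted one, an order that the rule favours. Ranked among all shared regions, the median member moved from the 31.5th percentile of fed density to the 68.6th of fasted density. Of the 724, 410 (56.6%) lay at or under the median shared region when fed and above it when fasted. Few were already among the strongest sites: 3 were in the upper 10% of shared regions in fed liver, and 66 (9.12%) in fasted liver.

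**Figure D1:**
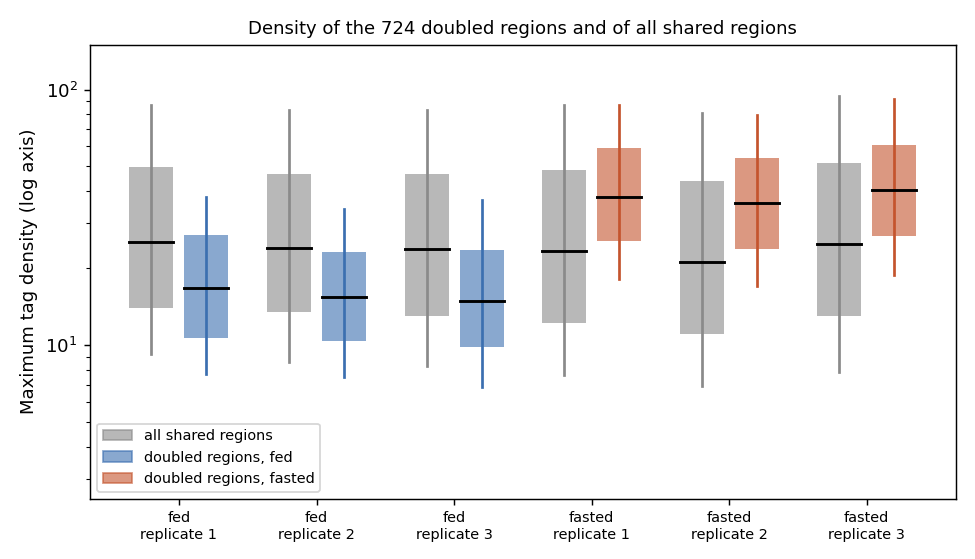
Maximum tag density (log axis) in each of the 6 libraries for the 724 doubled regions (blue in fed, orange in fasted) and for all 36088 shared regions (grey). Black lines are medians, boxes the middle 50% and thin lines the 10th to 90th percentile; the doubled regions have medians of 14.9 to 16.7 in fed and 36.1 to 40.6 in fasted libraries, while the grey boxes change little.

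Most members passed the threshold by a small margin. The median difference was 1.202 on the log2 scale, and 424 members (58.6%) lay between 1 and 1.25. Another 167 lay between 1.25 and 1.5, 110 between 1.5 and 2, and 23 at 2 or above. The 23 with the largest differences also had the lowest typical fed density, 11.6, against 17.1 for those between 1 and 1.25, as a rule on a difference of log densities tends to give. On the deposited scale, with no pseudocount or centring, the ratio of mean fasted to mean fed density ran from 1.88 to 7.71 with a median of 2.27. It was under 2 for 85 members, so the name doubled refers to the centred log2 scale. The count depends on that scale: with a pseudocount of 10 in place of 1 it was 215, with average in place of maximum density 397, and without centring 559.

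The values that chose the members differed between replicates somewhat more than those of other sites. The SD of the centred log2 density had a median of 0.25 over the 3 fed and 0.23 over the 3 fasted libraries. Over all shared regions these medians were 0.20 and 0.21. The gap from the highest fed to the lowest fasted value had a median of 0.76, and reached 1 in 166 members. Fasted replicate 2 was the highest of the fasted libraries at 294 members (40.6%), near its share of 38.6% over all shared regions. Across the 724 members the libraries of 1 group correlated at 0.83 to 0.93, and libraries of different groups at 0.79 to 0.88. Over all shared regions these ranges were 0.94 to 0.97 and 0.88 to 0.91, which do not overlap as those of the members do. These correlations are over regions that share each library, and describe how alike the order of the sites is.

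**Figure D2:**
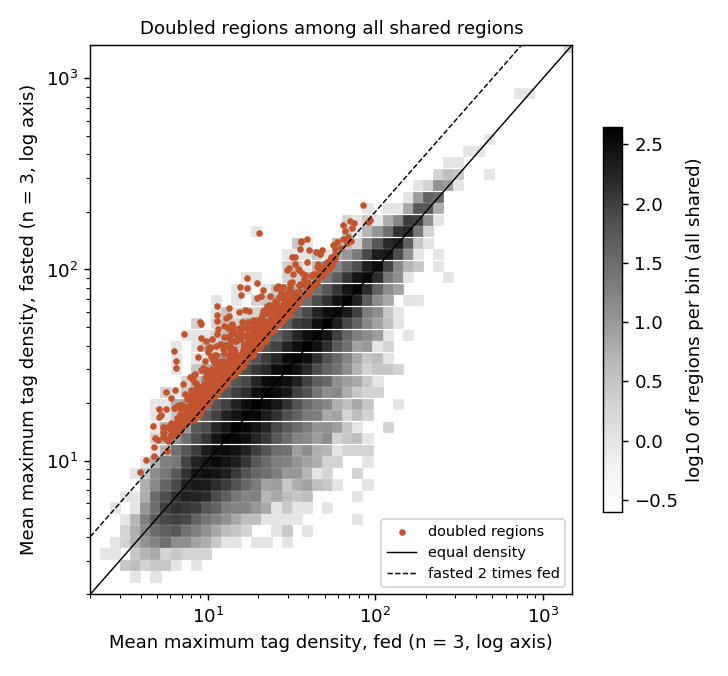
Mean maximum tag density in fed (x) and fasted (y) libraries, 3 each, on log axes. Grey squares count all shared regions, orange points are the 724 doubled regions, and the solid and dashed lines mark equal density and a ratio of 2; 85 members lie under the dashed line, since the threshold was set on centred log2 values.

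At the threshold the regions on both sides looked alike. The last member was a site on chromosome 13 (mm9, 24418769 to 24421378), with fed densities of 30.5, 36.7 and 36.8 and fasted ones of 55.6, 70.8 and 74.2. The first region to miss it, on chromosome 11 (94134290 to 94135949), had 29.1, 45.0 and 39.8 fed and 62.1, 71.8 and 82.0 fasted. The groups did not overlap at either site, which the rule requires of the first. A further 7 regions had a mean difference of at least 1 but overlapped between the groups. One of them, on chromosome 10 (19784158 to 19785094), stood at 82.7 in fasted replicate 2 but at 19.7 in fasted replicate 3, inside the fed range of 16.1 to 22.9.

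Because the members were chosen on these libraries, the same rule was also applied to 4 libraries and read in the same-numbered pair left out. Without replicates 1, 923 regions were chosen, and in the left-out pair 871 of them had a hotspot in both libraries. Of these 839 (96.3%) were higher in the left-out fasted library. Without replicates 2 it was 809 of 861 (94.0%), and without replicates 3, 766 of 815 (94.0%). Over the 36088 regions called in every library the shares were 53.6%, 53.7% and 53.3%. So the direction held in nearly all of these sites in libraries whose densities the rule had not used. The left-out pair was not fully separate, since region bounds and the regions used for centring came from all 6 libraries. Each left-out pair is 1 sample against 1, which gives no test.

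The size of the difference was smaller in the left-out libraries than in the choosing ones. The median difference among the chosen regions was 0.97, 0.91 and 1.03 in left-out pairs 1, 2 and 3, against 1.21, 1.195 and 1.22 in the libraries that chose them. A difference of at least 1 was seen in the left-out pair for 47.5%, 44.8% and 52.1%, against 3.16%, 3.52% and 3.67% of the same 36088 regions. A further 50, 49 and 2 chosen regions had a hotspot in the left-out fasted library alone, and 2, 0 and 1 in the left-out fed library alone. Chosen regions with a hotspot in both left-out libraries had a median percentile of 36.1, 36.2 and 34.2 in the left-out fed library. Over the same 36088 regions it was 51.4, 50.5 and 51.1. Chosen regions with no hotspot in the left-out fed library are not in these medians. Over all 9 ways to leave out 1 fed and 1 fasted library, the share higher in the fasted one was 94.0% to 99.6%.

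**Figure D3:**
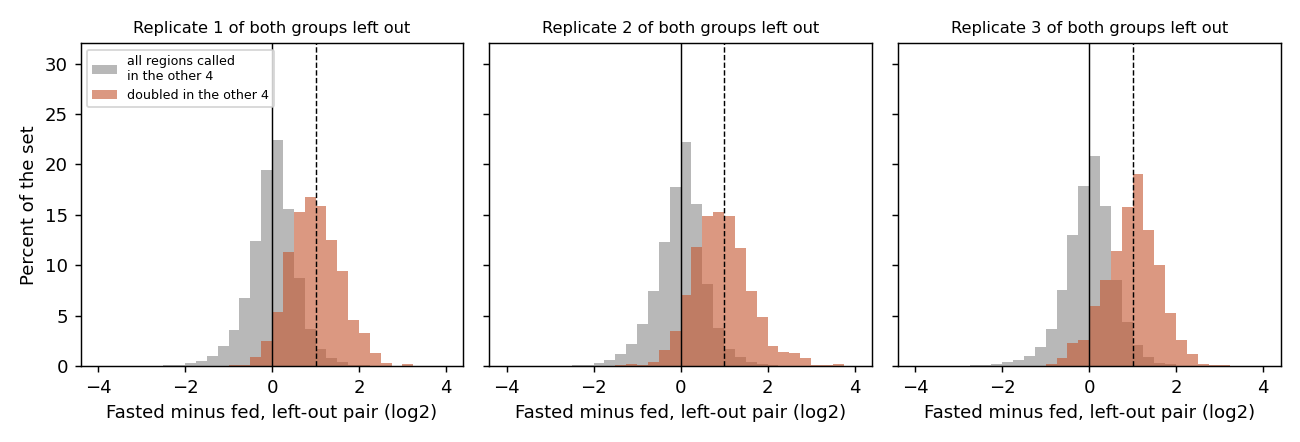
Fasted minus fed difference (centred log2 density) in a pair of libraries whose densities the rule did not use, for regions doubled in the other 4 libraries (orange) and for all regions called in those 4 and in the pair (grey), as percent of each set. Region bounds and centring came from all 6 libraries. The grey bars centre near 0, while the orange bars have medians of 0.97, 0.91 and 1.03 (dashed line at 1).

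The 10 greatest differences were at sites with fed densities from 3.00 to 29.5. Gene names given for loci are background knowledge that was not checked against an mm9 annotation, and no distance to a gene was computed. The site with the largest difference, 3.03 (SE 0.34), lies on chromosome 18 (11143932 to 11145530) on the flank of Gata6, which encodes a GATA-family transcription factor. Its fed densities were 16.9, 14.2 and 29.5, and its fasted densities 136, 166 and 166. Every fasted library stood at more than 4 times every fed one, and the site moved from the 42.0th to the 98.0th percentile of shared regions. A second member lay 15158 bp away (11160689 to 11162158) at 25.01, 28.9 and 23.6 fed and 58.2, 67.9 and 69.6 fasted. Another member farther along (11214373 to 11215489) differed by 1.03. The second largest difference, 2.59 (SE 0.41), was at a distant site of the same chromosome (54409327 to 54411059). That site had 9.93, 3.00 and 5.95 fed, the lowest fed density among the 10, and 42.0, 32.8 and 37.8 fasted.

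The differences ranked 4 and 5, at 2.51 each, were at the loci of Rhobtb1 and Fam134b. Fam134b, also called Retreg1, encodes a receptor for autophagy of the endoplasmic reticulum. The Rhobtb1 site (chromosome 10, 68566780 to 68568079) had 10.3, 8.62 and 8.24 fed and 46.8, 59.6 and 53.3 fasted, with an SE of 0.16 for the difference. The Fam134b site (chromosome 15, 25874468 to 25875651) was as low in fed liver, at 8.09, 7.49 and 6.18. Its fasted values were further apart, at 41.7, 68.5 and 28.2 (SE of the difference 0.44). A second Fam134b member 3329 bp away (25869915 to 25871138) was among the last to pass, at 36.0, 25.5 and 42.6 fed and 55.6, 88.4 and 56.9 fasted. Both Fam134b members were highest in fasted replicate 2.

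Sites near Txnip and at Ddc were also among the 10 largest. Txnip encodes a protein that limits glucose uptake, and Ddc encodes aromatic L-amino acid decarboxylase. The Txnip site (chromosome 3, 96375228 to 96376477) had 17.7, 18.7 and 15.3 fed and 96.2, 59.2 and 115 fasted, a difference of 2.35. The Ddc site (chromosome 11, 11744103 to 11745705) had 14.7, 14.6 and 21.97 fed and 89.4, 79.3 and 72.0 fasted, a difference of 2.26. In both, the lowest fasted library was more than 2 times the highest fed one. Of the other regions in the 10, the one with the closest replicates lies on chromosome 11 (76521282 to 76524220). It had 11.8, 11.2 and 10.99 fed and 49.6, 63.3 and 59.3 fasted (difference 2.32, SE 0.14).

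At the Cyp4a cluster on chromosome 4, whose enzymes hydroxylate fatty acids at the omega end and are textbook targets of PPAR-alpha, 4 members were counted after their positions were seen. The strongest difference (2.14) was at 115155706 to 115159342, the third widest member. It had 21.3, 12.7 and 25.2 fed and 99.9, 59.4 and 95.7 fasted. The other 3 had differences of 1.17, 1.11 and 1.11. A region called in all 3 fasted and no fed library lay 220 bp from the widest of the 4. Fasted replicate 2 had the lowest fasted density at all 4.

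**Figure D4:**
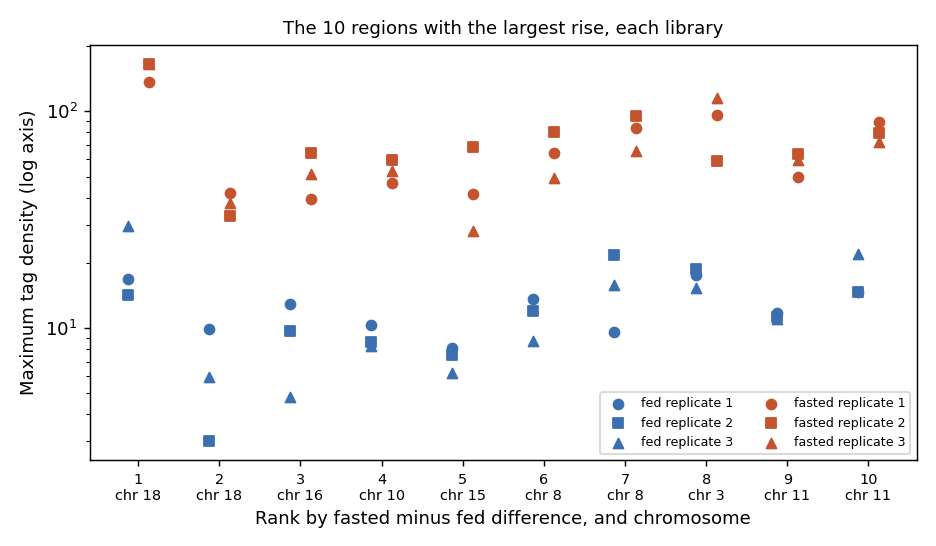
Maximum tag density (log axis) in each library for the 10 doubled regions with the largest fasted minus fed difference, in that order, labelled by chromosome. Blue symbols are fed and orange fasted libraries, and in all 10 the lowest orange symbol lies above the highest blue one, as the rule requires; the first region reaches 166 in fasted livers.

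Some members lay near the other end of the fed scale, and the rule requires higher fasted values of every member. The highest fed density of any member was on chromosome 12 (21573737 to 21575663), at 103, 86.2 and 92.0 fed and 186, 164 and 193 fasted. A site on chromosome 5 (137547795 to 137549463) went from 88.3, 88.8 and 92.9 to 196, 166 and 170. A site on chromosome 6 (5445759 to 5447548) went from 83.1, 94.8 and 77.4 to 224, 165 and 263. The SD at these 3 sites was 8.33, 2.55 and 8.89 over the fed libraries and 15.0, 16.3 and 49.7 over the fasted ones. The weakest member, on chromosome 12 (100959228 to 100960112), went from 4.78, 3.37 and 3.66 to 8.79, 9.08 and 8.17.

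When the shared regions were put in 4 classes of 9022 by fed density, the members numbered 300, 244, 143 and 37 from the weakest class to the strongest. That was 3.33%, 2.70%, 1.59% and 0.41% of each class. The halved regions numbered 54, 242, 437 and 302 in the same classes, fewest in the weakest and most in the third. By mean density over all 6 libraries, which a rise moves up, the 4 classes held 71, 226, 297 and 130 members (0.787%, 2.505%, 3.29% and 1.44%). The weakest class then held the fewest. The orders by fed density are partly built into a rule on the same fed values, and nothing is read from them.

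Doubled regions were close to other sites in width. Their median width was 1111 bp (10th to 90th percentile 836 to 1867), against 1054 bp (736 to 1992) over all shared regions and 1079 bp for the halved ones. They held fewer narrow and fewer wide regions: 34.4% were under 1000 bp and 6.91% at least 2000 bp, against 44.1% and 9.90% of all shared regions. The order of the medians depended on density. In the weakest of 4 classes of 9022 shared regions by mean density over the 6 libraries, members were wider (933 against 823 bp), and in the strongest they were narrower (1328.5 against 1487.5 bp). Without fasted replicate 2 the medians were 1005 bp for the members and 1006 bp for all shared regions. A single hotspot of each library made up 630 members (87.0%), the same share as over all shared regions (87.1%).

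The hotspots inside these regions differed in width between the groups. Within the members the median fed hotspot spanned 678.5, 693.5 and 813 bp and the median fasted one 952, 1083 and 942 bp. Over all shared regions the fed medians were 790, 816 and 953 bp and the fasted ones 841, 958 and 823 bp. In each group the library with the smallest density step, fed replicate 3 or fasted replicate 2, had the widest hotspots. It is the deepest of its group only if a step is a tag, which is not stated. An effect of depth on width was not tested. In the halved regions the order of fed and fasted was the reverse of that in the members, with 894.5, 879 and 1046.5 bp fed and 683.5, 779 and 661 bp fasted. Hotspot width moves with density and comes from the same contrast, so this is a description. The extremes were a 7306 bp member at Tat on chromosome 8 and a 664 bp member on chromosome 5 (123593887 to 123594550).

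A minority of the doubled sites lay near one another. Of the 724, 160 (22.1%) had another member within 20 kb, while a member lay within 20 kb of 3.56% of the shared regions that were neither doubled nor halved. Within 5 kb the shares were 12.2% and 1.250%, and within 100 kb 34.9% and 10.97%. Only 10 members had another member within 150 bp, so few of these neighbours are fragments separated by less than that. The halved regions were grouped as well: 16.6% had another halved region within 20 kb, against 4.72% of the regions neither doubled nor halved. Members and halved regions were seldom close, with 13 members (1.796%) within 20 kb of a halved region, against the same 4.72%. No test was made of these shares, since neighbouring regions are not independent.

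A larger share of the members than of other regions lay near sites listed in fasted liver alone. There were 852 regions called in all 3 fasted and no fed library, with a median density of 8.87, and one lay within 20 kb of 145 members (20.03%), against 4.34% of regions neither doubled nor halved and 3.29% of the halved. For the 1153 regions called in all 3 fed and no fasted library the share was 1.796% of members, 5.17% of regions neither doubled nor halved and 16.04% of the halved. Both of these sets rest on the same libraries and the same contrast as the members, so the shares are a description. A region missing from a list may still have had some signal, since only called hotspots are listed. The median distance to any other shared region was 4918 bp for members and 6077 bp for all shared regions. In the weakest density class this distance was longer for the members (12.98 against 10.4 kb), and in the strongest it was shorter (3.58 against 5.08 kb).

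Shared sites around the members that were not members themselves tended to be higher in fasted liver, the more so the closer they lay. Of 112 such regions within 1 kb of a member, 91.1% had a difference above 0, with a median of 0.50. At 1 to 5 kb it was 83.0% of 318 (median 0.35), at 5 to 20 kb 76.4% of 801 (median 0.25) and at 20 to 100 kb 63.9% of 2597 (median 0.12). Beyond 100 kb it was 52.4% of 31536, with a median of 0.02. These regions share libraries and stretches of DNA with the members, and the values are a description.

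Most members stood alone, with a median of 309 kb to the next member. With gaps of at most 20 kb, 564 (77.9%) formed no group, 61 groups held 2 and 11 groups held 3 or more. Without fed replicate 1 there were 18 groups of 3 or more, and without fasted replicate 2 also 18. A pseudocount of 10 left 1 such group, average density 2, the upper 50% of regions by density 1 and no centring 6. A threshold of 0.8 gave 41 and one of 1.2 gave 2. The largest group of the main rule, 6 members over 26.8 kb of chromosome 8 (112502103 to 112528885), lies at Tat, which encodes tyrosine aminotransferase. This enzyme of tyrosine breakdown is a classical target of glucocorticoids and cAMP in liver. Its members differed by 1.09 to 2.47. The one at 112511344 to 112512303 had 13.6, 11.99 and 8.70 fed and 64.1, 80.1 and 49.3 fasted. The 7306 bp member (112518303 to 112525608) had 9.56, 21.7 and 15.8 fed and 83.7, 95.1 and 65.4 fasted, each the highest of its hotspots in that library.

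The other 4 Tat members differed mainly in how open they were when fed. The site at 112502103 to 112504035 went from 68.1 ± 8.94 to 138 ± 17.5 (SD, n = 3), and that at 112506010 to 112507066 from 35.1 ± 3.00 to 77.1 ± 7.56. Those at 112507596 to 112508863 and 112527919 to 112528885 went from 23.4 ± 2.94 to 49.7 ± 6.45 and from 15.7 ± 2.72 to 33.8 ± 2.14. A pair of other shared regions inside the group did not reach the threshold. The strongest site of the locus in fed liver (112509911 to 112511003, 95.6 ± 17.8) stood at 158 ± 5.48 in fasted livers, a difference of 0.81. A 3786 bp region (112513696 to 112517481) differed by 0.29, with fasted values of 57.0, 31.97 and 79.3 around the fed values of 41.2, 47.6 and 46.9.

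The second group held 5 members over 57.8 kb of chromosome 16 (93311736 to 93369551), with differences of 1.05 to 1.79. Its largest difference, 1.79, was at a site (93334780 to 93336506) that went from 10.7, 10.1 and 12.8 fed to 49.4, 28.8 and 40.9 fasted. Fasted replicate 2 was the lowest fasted library at 4 of these 5. Between the members a region at 93346209 to 93348086 went the other way, from 16.9, 7.49 and 21.7 to 8.23, 7.30 and 7.57. Its groups overlapped. Summed over the 5 members, the fed densities came to 76.5, 71.6 and 75.1 and the fasted ones to 199, 144 and 186.

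Of 9 groups tied at 3 members, the 3 with the shortest span were described, so their compactness follows from that choice. None had another shared region between its members. On chromosome 5 (130504853 to 130510553) the densities of the members summed to 162, 126 and 112 fed and 268, 304 and 257 fasted. On chromosome 16 (18712866 to 18718868) the sums were 66.6, 106 and 67.7 against 175, 214 and 210. This run holds the region with the third largest difference (2.52), next to a site that went from 57.95 ± 21.8 to 121 ± 7.71. On chromosome 13 (94677628 to 94686386) they were 45.2, 52.1 and 42.1 against 134, 126 and 151.

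One group, singled out after its values were seen, mixed both directions. It lies at Fkbp5, which encodes a co-chaperone of the glucocorticoid receptor that glucocorticoids induce. Over 27.6 kb of chromosome 17 (28556766 to 28584344), 3 members differed by 1.11 to 1.197. A halved region between them (28565533 to 28566773) went from 44.1, 34.1 and 39.6 fed to 11.9, 14.4 and 11.5 fasted. A strong site (28574713 to 28576197) stood at 91.5 ± 10.1 in fed and 65.97 ± 4.48 in fasted livers. The 3 members themselves went from 16.8 ± 6.45 to 37.6 ± 13.8, from 11.6 ± 3.98 to 25.6 ± 5.86 and from 24.97 ± 5.68 to 51.5 ± 8.14 (SD, n = 3). Of the 11 groups with 3 or more members, this was the only one with a halved region inside.

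**Figure D5:**
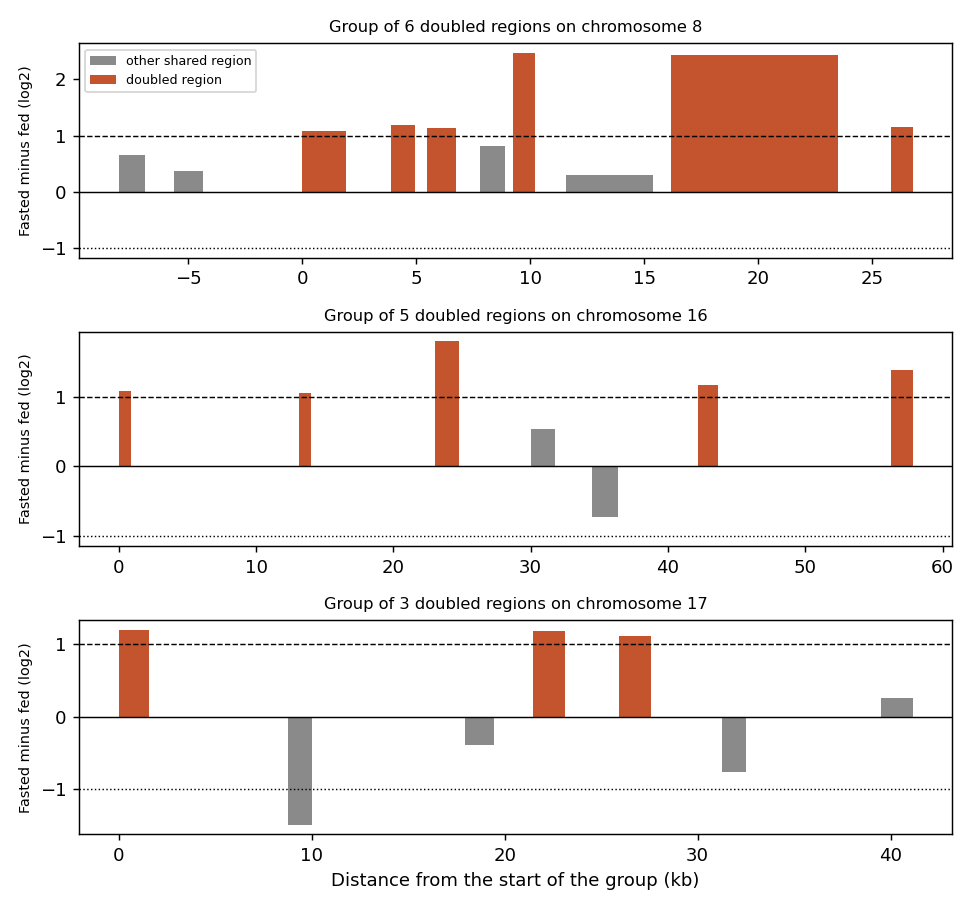
Fasted minus fed difference (centred log2 density) of every shared region along the groups on chromosomes 8 (6 members), 16 (5 members) and 17 (3 members) and up to 30 kb around them, against distance from the start of the group in kb. Bars are as wide as the region (at least 0.3 kb), orange bars are doubled regions, and dashed and dotted lines mark 1 and -1; the chromosome 17 panel has a region at -1.48 between members.

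The doubled regions were spread over all 19 autosomes. They made up 1.27% of the shared regions on chromosome 4, the lowest share, and 2.76% on chromosome 5, the highest (31 of 2446 and 66 of 2387 regions). The halved regions made up 3.39% and 2.26% on the same chromosomes. Chromosome 18, with the site of the largest difference, held 22 members (1.85%). No test of these shares was made.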

How the data were processed

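DNase I hypersensitive sites were measured in 3 fed and 3 fasted liver libraries. The submitters' processing notes name CASAVA 1.8 and build mm9. Aligner and caller of hotspots: not given in the sources used here. Per the file headers, each list deposited by the authors gives hotspots of 1 library with a maximum and average tag density, a coverage signal of unstated scale. The authors also deposited a z-score, their own score of each hotspot, and a p-value; neither was used. Where a list has no hotspot, the density there is unknown, not 0.

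Hotspots overlapping by at least 1 bp were merged. A region's density in a library is the highest maximum density of its hotspots there. Values are log2(density + 1) minus the library's median over the shared regions, and the standard error (SE) of a difference comes from the group SDs. Merging and the rule were tested on simulated data. Members and lists were chosen with earlier results of these data known. Named regions are the 10 largest differences, those next to the threshold, the widest, narrowest, strongest and weakest in fed liver (3 each, not all printed) and the 5 groups with the most members (ties: shortest span); the Fkbp5 and Cyp4a regions, second sites beside a named one, and classes by mean density were added after values were seen. The planned naming of the nearest gene was not run; loci are named from background knowledge. Gene lists, distances to start sites, cell type markers and region sequences were not analysed here, since the annotation at hand is of another build. Python 3.11.15, numpy 2.4.6, pandas 2.3.3, scipy 1.17.1 and matplotlib 3.10.9 were used.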

Additional observations from a re-analysis of the deposited data

How the results depend on the processing

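Of 20 other settings, 15 left the count of members within 1.5 times 724. No member of the main rule touched a region halved under any of them. That says little, since all the settings reuse the libraries that chose the members. With a pseudocount of 10 there were 215 members, with a median width of 1207 bp, a median fed density of 19.7, a median gap to the next shared region of 3920 bp, 14.4% with another member within 20 kb and 1 group of 3 or more. Average density gave 397 members, with fed medians of 6.58 for members and 9.13 for all shared regions, 18.6% near another member and 2 groups of 3 or more. The upper 50% of shared regions by density held 318 members; median widths were 1192 bp for members and 1313 bp for all, fed medians 20.98 and 47.7, the gap 7392 bp, the share near another member 18.9% and groups of 3 or more 1. A mean difference of at least 0.8 gave 1365 members, 28.7% near another and 41 groups of 3 or more; one of at least 1.2 gave 366 members, a fed median of 14.1, 15.3% near another and 2 groups.

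Without centring there were 559 members, all among the 724, and 6 groups of 3 or more. Quantile normalization gave a median width of 1076 bp and a fed median of 13.9. Merging hotspots within 150 bp gave median widths of 1141.5 bp for members and 1080 bp for all shared regions. Regions with exactly 1 hotspot of each library had median widths of 1063 and 996 bp, a fed median of 23.1 over all shared regions and a gap of 5973 bp. Lists of equal length gave medians of 1079 bp and 26.3 over all shared regions. Another member lay within 5, 50 and 100 kb of 12.2%, 29.1% and 34.9% of members.

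Leaving out each library in turn gave 702 to 833 members, of which 608 to 649 were among the 724. Median widths ran from 1005 to 1110.5 bp for members and 1006 to 1041 bp for all shared regions, fed medians from 14.1 to 16.2 and 22.8 to 24.5, gaps from 4371 to 5096 bp, shares near another member from 20.8% to 24.6% and groups of 3 or more from 9 to 18.

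In the left-out pairs 1, 2 and 3 the share higher in fasted was 99.6%, 97.8% and 99.2% with a pseudocount of 10. Without centring it was 90.2% in pair 2 and 97.7% in pair 3. With fasted replicates 1 and 3 in place of 2 beside fed replicate 2 it was 97.9% and 97.3%, and with fasted replicates 1 and 2 beside fed replicate 3, 99.6% and 95.7%. The cause of these shifts was not tested.

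With the replicate number as a block (every same-numbered pair higher in fasted) 727 regions were members. Deviations of same-numbered libraries correlated at -0.07, -0.03 and -0.17 over shared regions, and those of different-numbered libraries at -0.07 to 0.14. With 3 libraries in each group these values cannot decide whether the numbers mark pairs. Counts of gene classes and distances to genes were not run. If a density step is a tag, which is not stated, counting error limits the weakest members. Differences between 3 and 3 libraries have only the spread of those libraries behind them.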
